A study of Mus musculus with 7 samples.

Results

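The accessibility of chromatin at 31 genes of blood and immune cells was read in 7 mouse libraries from developing teeth and their embryonic precursor tissue. The 31 genes were listed by the cell type they are known from, out of 21887 protein-coding genes placed on chromosomes, a rule that uses no measured value. A gene was scored by the peaks (called accessible intervals) whose summit lay within 1 kb of either gene end, and by those inside the gene body or within 25 kb of it. The list holds 7 genes of leukocytes in general, 10 of macrophages, 5 shared by myeloid cells, the antigen presentation gene Cd74, 4 of granulocytes, and 4 of the red cell and blood progenitor lineage.

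The assay was Omni-ATAC, a form of ATAC-seq in which a transposase inserts adapters into DNA that nucleosomes leave free. At embryonic day 11.5, first pharyngeal arches, from which the jaws and the epithelium of teeth arise, were treated with Dispase II and their ectoderm was peeled away (2 libraries). Cells positive for Sox2, called dental epithelial stem cells in the labels, were sorted by fluorescence from the labial cervical loop of lower incisors at postnatal day 2 (2 libraries), in a Sox2-GFP line whose GFP is under the endogenous Sox2 promoter. At the same age, 1 library each came from the whole lower incisor, the lower first molar and the upper first molar. The genotype of the ectoderm and whole-tooth animals, and whether replicates came from separate animals or litters, are not given in the sources used here. The spread between replicates may therefore be technical, and the values of a whole tooth have no replicate check.

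Blood cells reach every vascularised tissue, and macrophages settle in the dental pulp and follicle, where osteoclasts of the same lineage later resorb bone around the erupting tooth. Epithelium peeled from an embryo or sorted by a fluorescent reporter is meant to hold few of them. In blood cells, PU.1 (the product of Spi1), RUNX, C/EBP and GATA factors bind enhancers and gene starts and keep them open, while the same sites are commonly closed in epithelium and mesenchyme.

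The gene starts of 5 genes show the range of sequence on the list. Cd68, a lysosomal glycoprotein abundant in macrophages, and Coro1a, an actin-regulating coronin of leukocytes, had a peak over the start window in all 7 libraries. Tal1, a transcription factor of blood progenitors, had one in both ectoderm libraries only. Itgam, the CD11b integrin chain of myeloid cells, and Mrc1, the macrophage mannose receptor, had none in any library. Each line gives the 250 bases before the start, 5′ to 3′ on the gene's own strand, from RefSeq on GRCm38.p6. Capitals mark 4 motifs on either strand, a match on the other strand showing as its reverse complement. They are GAGGAA, a core of PU.1 sites, and AGATAA, read by GATA factors. The RUNX motif searched was TGTGGT and that of C/EBP was TTGCNNAA. Matches in the 50 bases after the start were counted too and are not shown. In Tal1 the GATA and C/EBP matches abut and form 1 run of capitals.
Cd68 (chr11:69666171-69666420, minus strand): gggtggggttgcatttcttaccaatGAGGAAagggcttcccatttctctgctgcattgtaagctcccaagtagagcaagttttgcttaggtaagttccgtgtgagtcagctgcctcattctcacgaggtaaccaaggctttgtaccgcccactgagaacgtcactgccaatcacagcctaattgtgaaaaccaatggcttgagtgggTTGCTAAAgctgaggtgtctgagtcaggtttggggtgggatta
Coro1a (chr7:126704817-126705066, minus strand): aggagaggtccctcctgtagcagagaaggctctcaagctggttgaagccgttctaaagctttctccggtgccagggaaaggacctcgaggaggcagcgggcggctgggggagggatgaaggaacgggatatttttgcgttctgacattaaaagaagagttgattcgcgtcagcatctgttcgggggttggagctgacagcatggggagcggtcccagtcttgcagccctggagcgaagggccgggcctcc
Tal1 (chr4:115056176-115056425, plus strand): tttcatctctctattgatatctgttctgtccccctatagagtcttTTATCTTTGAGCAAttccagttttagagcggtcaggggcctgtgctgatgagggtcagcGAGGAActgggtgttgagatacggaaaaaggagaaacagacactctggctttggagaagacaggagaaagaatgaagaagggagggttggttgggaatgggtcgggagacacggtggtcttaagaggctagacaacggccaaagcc
Itgam (chr7:128062390-128062639, plus strand): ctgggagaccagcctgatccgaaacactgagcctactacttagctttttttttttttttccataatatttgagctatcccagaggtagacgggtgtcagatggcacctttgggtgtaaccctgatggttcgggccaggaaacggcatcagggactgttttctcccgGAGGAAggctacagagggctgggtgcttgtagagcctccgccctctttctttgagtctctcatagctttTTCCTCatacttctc
Mrc1 (chr2:14229164-14229413, plus strand): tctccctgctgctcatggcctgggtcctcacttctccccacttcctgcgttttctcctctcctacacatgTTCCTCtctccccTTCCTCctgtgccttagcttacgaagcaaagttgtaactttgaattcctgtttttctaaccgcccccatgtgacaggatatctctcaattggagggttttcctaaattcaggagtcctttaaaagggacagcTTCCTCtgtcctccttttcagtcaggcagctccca

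The start table listed 23 of the 31 genes, in 28 windows that run from 250 bases before to 50 bases after the start. A peak overlapped a window of 5 and 5 of the 23 genes in ectoderm (49.7% and 47.6% of all genes listed), 3 and 2 in the sorted libraries (42.3% and 41.8%), 3 in incisor (45.1%), 4 in lower molar and 3 in upper molar (45.9% each). Of the 23, 18 had none in any library (46.9% of all genes listed) and 2, Cd68 and Coro1a, had one in all 7 (38.8%). GAGGAA was in a window of 13 of the 23 genes, and in 28.3% of the 32851 windows of all genes. TGTGGT was in 6 of the 23 against 16.8% of all windows, AGATAA in 4 against 11.2%, and TTGCNNAA in 3 against 10.8%. A gene may have several windows, so a share of genes and a share of windows are not on the same footing. Of the 28 windows of the listed genes, GAGGAA was in 13, TGTGGT in 6, AGATAA in 4 and TTGCNNAA in 3. GAGGAA was in 11 of the 18 listed genes with no peak over a start window in any library, Itgam and Mrc1 among them, and in 2 of the 5 with such a peak, Cd68 and Tal1. Coro1a, open in all 7 libraries, held none of the motifs. A match is a run of letters and no measured binding.

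Most of the 31 genes had no peak at either end in any tissue. A gene-end peak was called for 8 and 7 of the 31 in ectoderm, where the share over all 21887 genes was 63.1% and 60%. In Sox2-positive cells it was called for 5 and 4, against 54.6% and 53.3% of all genes. The incisor, the lower molar and the upper molar had 4 each, against 57%, 58.5% and 58.3% of all genes. The ectoderm mean was 7.5 ± 0.707 genes and the Sox2-positive mean 4.5 ± 0.707 (SD, n = 2 each). The ranges of those groups did not overlap, and the whole teeth lay at the lower edge of the Sox2-positive range. With 2 libraries against 2, an exact two-sided permutation test cannot give a p below 0.333, so none was run.

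**Figure D1:**
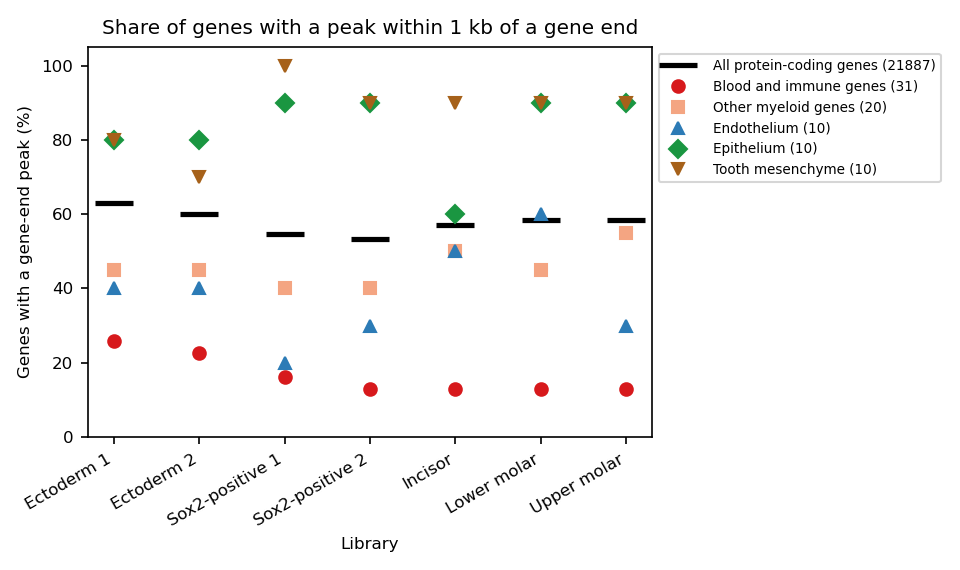
Share of genes (percent, y axis) with a peak summit within 1 kb of a gene end in each of the 7 libraries (x axis), for all protein-coding genes (black bars) and for 5 gene lists (symbols, list sizes in the key). The blood and immune genes lie below the black bar in every library, from 12.9% to 25.8%, whereas the epithelial and mesenchymal symbols lie at 60% or above.

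List length differed between libraries, from 39017 peaks in Sox2-positive replicate 2 to 82461 in ectoderm replicate 1, and a longer list reaches weaker peaks. With each list cut to its 38000 autosomal peaks of smallest p, 30 autosomal genes could be scored. The ectoderm then had 5 and 6 of the 30 (56.6% and 58.3% of 20665 genes), Sox2-positive cells 5 and 4 (54.9% and 54.8%), and each whole tooth 3 (52.6% in incisor, 53% in lower molar and 53.1% in upper molar). At equal length the ectoderm and Sox2-positive ranges met at 5. In each of these comparisons the share of blood and immune genes called was below that of all genes. In bulk tissue, fewer cells of a type and fewer open copies of a site per cell cannot be told apart.

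Over the 7 libraries, 22 of the 31 genes had no gene-end peak anywhere, a pattern of 32.9% of all genes. These were Ptprc, Laptm5, Vav1 and Cd52 of the general leukocyte genes, 9 of the 10 macrophage genes (all but Cd68), Lyz2 and Itgam of the myeloid genes, all 4 granulocyte genes, and Gata1, Klf1 and Hba-a1. Ptprc encodes CD45, the surface phosphatase of all leukocytes, and Csf1r the receptor for the main macrophage growth factor. Coro1a, Cd68 and Spi1 had a gene-end peak in all 7, a pattern of 48.8% of all genes. No gene had one in the 3 whole teeth and nowhere else, where the share over all genes was 0.274%. None had one in the incisor only (0.42% of all genes), in both molars only (0.334%) or in the 5 postnatal libraries only (0.507%).

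**Figure D2:**
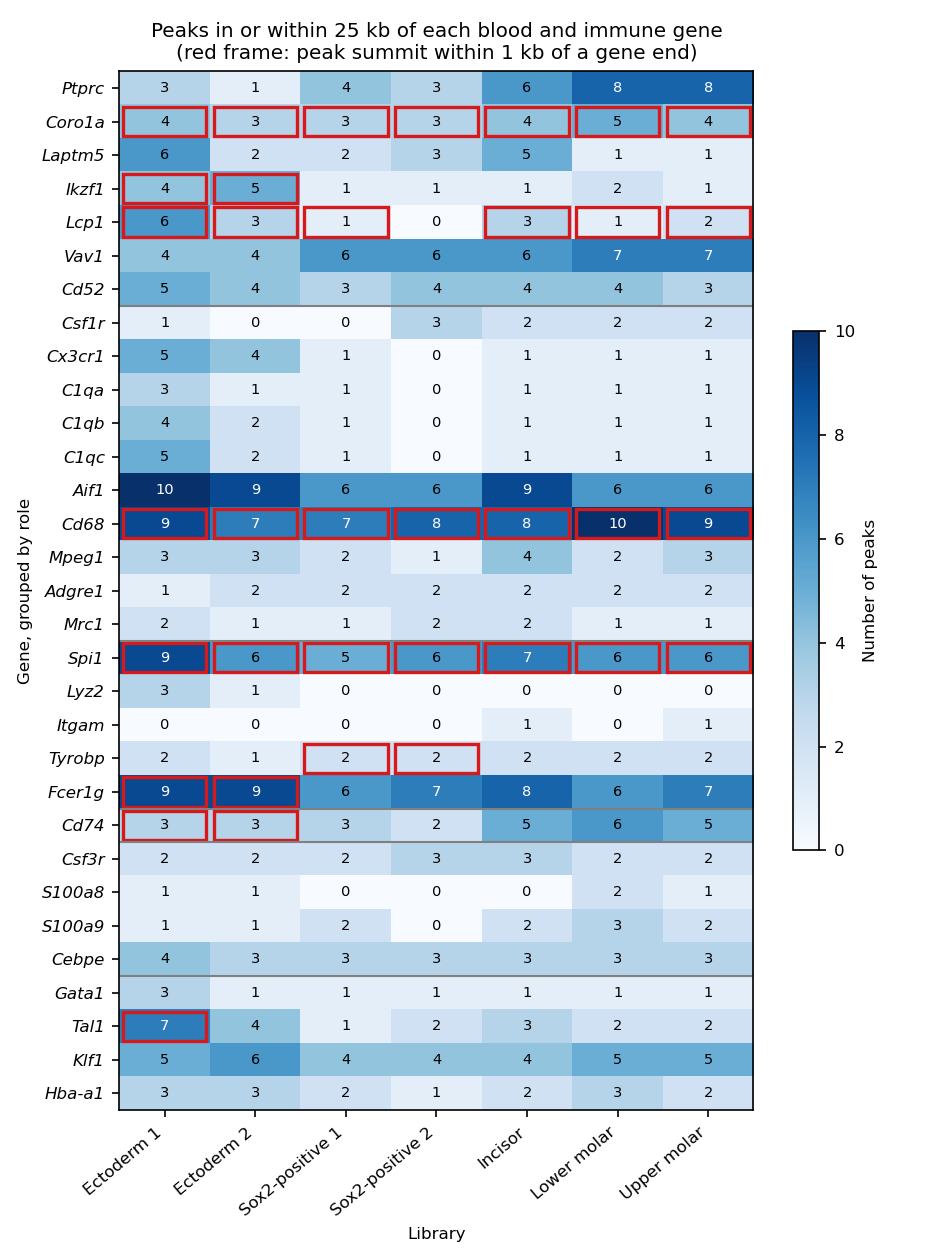
Number of peaks (colour and printed number) inside or within 25 kb of each of the 31 genes (y axis, grouped by role between grey lines) in each library (x axis), with red frames where a summit lay within 1 kb of a gene end. Frames run across all 7 columns for Coro1a, Cd68 and Spi1 only. Peaks near genes that lie close together, such as C1qa, C1qb and C1qc, are counted once for each gene.

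Among the leukocyte genes, Coro1a (chr7:126699774-126704816, GRCm38) had its peak on the start itself, 0 to 47 bases from it. Its deposited signal was 1198 and 781 in ectoderm, 236 and 395 in the Sox2-positive libraries, 421 in incisor, 414 in lower molar and 383 in upper molar. By p within its own list the peak was in the top 18.8% and 39.4% in ectoderm, 88.1% and 60.1% in Sox2-positive cells, and 44.2%, 47.8% and 46.2% in the teeth. It was thus strongest in both ectoderm libraries and weakest in both Sox2-positive libraries by rank, with the 3 teeth between them. Such ranks come from lists of different lengths, and no scale was given to which the signal was normalised, so both describe a peak within its own library.

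Ikzf1 encodes Ikaros, a zinc finger factor of lymphocyte and progenitor cells. A summit lay within 1 kb of its start in ectoderm only, with a signal of 2221 and 802 and a rank in the top 32.3% and 67.2%. In lower molar the nearest summit was 1.33 kb away, in a peak that reached a start window. Lcp1, which encodes the actin-bundling protein plastin of leukocytes, had a peak in 6 libraries and none in Sox2-positive replicate 2. The signal of that peak was 1444 and 723 in ectoderm, 635 in Sox2-positive replicate 1, 391 in incisor, 462 in lower molar and 507 in upper molar. By signal the highest values were again those of ectoderm, where replicate 1 had a further peak of 222 at the downstream end. By rank the shared peak was in the top 40.4% and 60.7% in ectoderm. Sox2-positive replicate 1, at 43.2%, lay between them. In the teeth it ranked in the top 86.3%, 80.5% and 70.7% and fell outside the equal-length lists. An end of Lrrc63 lies within 1 kb of the same summits.

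Of the 10 macrophage genes only Cd68 had a gene-end peak, and it had one everywhere. Its signal was 1038 and 1070 in ectoderm, 964 and 554 in the Sox2-positive libraries, 1033 in incisor, 1158 in lower molar and 1225 in upper molar. The molars ranked it highest, in the top 34% and 37.7%, and Sox2-positive replicate 2 lowest, at 82.4%. The summits lay 111 to 159 bases upstream of the Cd68 start. An end of Eif4a1, a translation initiation factor gene of all cells, lies within 1 kb of them, so the peak cannot be assigned to Cd68 alone. A separate region, 0.204 kb from the other end of Eif4a1, was open in all 7 libraries and ranked in the top 0.609% to 1.8%.

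Among the genes shared by myeloid cells, Spi1 (chr2:91082374-91115759) had a peak 435 to 569 bases inside its higher-coordinate end in all 7 libraries. The signal was 1813 and 1323 in ectoderm, 710 and 334 in the Sox2-positive libraries, 549 in incisor, 751 in lower molar and 708 in upper molar. Ectoderm was highest here too. At the lower-coordinate end a single peak was called, in the incisor only, with a signal of 325 and a summit 719 bases inside the gene. Which end is the start is not in the table used here.

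Tyrobp encodes an adaptor that signals for receptors of macrophages and natural killer cells. A peak at its higher-coordinate end was called in the 2 Sox2-positive libraries alone, with a signal of 772 and 355, a pattern found in 0.0366% of all genes (8 of 21887). Hcst, the gene of a related adaptor, has an end within 1 kb of those summits. Fcer1g, the common gamma chain of Fc receptors, had a peak at its downstream end in ectoderm only (signal 1175 and 242). Cd74, the invariant chain that escorts class II molecules, had a peak at its lower-coordinate end, also in ectoderm only (429 and 247). Ikzf1, Fcer1g and Cd74 thus made 3 of 31 genes called in both ectoderm libraries alone, against 3.01% of all genes. At equal length only Ikzf1 kept this pattern, 1 of 30 against 2.72% of all, Fcer1g being called in replicate 1 alone and Cd74 in replicate 2 alone. Tal1 had a gene-end peak in ectoderm replicate 1 only, with a signal of 364, as 1.93% of all genes did, and in replicate 2 the nearest summit was 1.03 kb away.

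The 1 kb limit divided near neighbours. The members just inside it were Tyrobp, with its nearest summit at 0.511 kb, and Spi1 at 0.435 kb. Just outside lay C1qc at 1.15 kb, Klf1 at 1.2 kb, Mpeg1 at 1.46 kb and Laptm5 at 1.58 kb. Klf1, the factor that switches on adult globin genes, held a peak inside the gene in all 7 libraries, with a signal of 1442 to 2779 and a rank in the top 8.04% to 17.8%. The nearest summit of any library was farthest away for Ptprc at 16 kb, Mrc1 at 15.3 kb, Adgre1 (the F4/80 antigen) at 14.1 kb and Itgam at 13 kb.

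The surroundings of the genes held more peaks than their ends. Inside or within 25 kb of the 31 genes, 2.26 Mb in all, there were 119 and 89 peaks in ectoderm, 69 and 71 in the Sox2-positive libraries, 97 in incisor, 91 in lower molar and 88 in upper molar. The ectoderm mean was 104 ± 21.2 and the Sox2-positive mean 70 ± 1.41 (SD, n = 2 each). Per Mb these counts were 1.22 and 1.41 times the density around all genes in ectoderm, 1.28 and 1.43 times in Sox2-positive cells, 1.25 times in incisor and 1.07 times in both molars. Both molars lay below the other libraries and the incisor within the range of ectoderm and sorted cells. With lists of equal length the ratio was 1.32 and 1.46 in ectoderm, 1.22 and 1.4 in the Sox2-positive libraries, 1.29 in incisor, 1.05 in lower molar and 1.18 in upper molar, and the molars were again lowest.

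Members without a gene-end peak differed in what lay around them. The complement genes C1qa, C1qb and C1qc lie side by side and shared 1 region, 1.19 kb from C1qc, found in every library except Sox2-positive replicate 2. With equal lists no whole tooth kept a peak within 25 kb of any of these genes. Sox2-positive replicate 1 kept 1 for each gene. Ectoderm then had 1 and 0 peaks near C1qa, 2 and 1 near C1qb, and 2 and 1 near C1qc. Within 25 kb of Adgre1 the ectoderm libraries had 1 and 2 peaks, and each postnatal library 2. Cd52, a small surface glycoprotein of lymphocytes, had 3 to 5 in each library, and Vav1 had 4 and 4 in ectoderm against 6 or 7 in each postnatal library. At equal length Vav1 had 4 and 4 in ectoderm, 6 and 6 in sorted cells, 6 in incisor and 5 in each molar, so ectoderm stayed lowest. Cx3cr1 went the other way, with 1 and 2 in ectoderm and 0 in each postnatal library. So did Ikzf1, a gene with a gene-end peak, with 4 and 3 in ectoderm and 1 in each postnatal library. The share of all genes with either order was not counted.

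Around the granulocyte genes the libraries overlapped. Csf3r, the receptor for the granulocyte growth factor, had 2 or 3 peaks in each library, and Cebpe, a transcription factor of granulocyte maturation, had 3 or 4. S100a8 and S100a9 encode the paired calcium-binding proteins of neutrophils. Within 25 kb of S100a8 there was 1 peak in each ectoderm library, 0 and 0 in sorted cells, 0 in incisor, 2 in lower molar and 1 in upper molar. S100a9 had 1 and 1, 2 and 0, 2, 3 and 2 in the same order. Of the red cell genes, Gata1, the lineage's main transcription factor, had 3 peaks in ectoderm replicate 1 and 1 in every other library. Hba-a1, an adult alpha globin gene, had 1 to 3 in each library.

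Merged over the libraries, those peaks made 165 regions. Of these, 34 lay inside a listed gene, 6 at the end of one, 36 at an end of some other gene, 40 inside some other gene and 49 between genes. Among regions shared by the Sox2-positive libraries, the 5 strongest by mean rank there lay at ends of Slc39a13, Prrc2a, Tomm40l, Eif4a1 and Mpdu1, neighbours of Spi1, Aif1, Fcer1g and Cd68, and all 5 were open in all 7 libraries. Over these 5 regions and all libraries the signal ran from 2420 to 8062 and the rank from the top 0.232% to the top 4.88%. Regions open everywhere numbered 38 of 165, against 17.3% of the 99357 regions near any gene, and 20 of the 38 were at another gene's end.

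Regions found in the 3 whole teeth and in no other library numbered 3 of 165, against 3.84% of all regions near genes. They lay in Tcof1 near Cd74 (chr18:60830020-60830630), in Dtx4 near Mpeg1 (chr19:12475404-12475828) and in Sult1a1 near Coro1a (chr7:126676284-126676613), so none was inside a blood or immune gene. Their signal was 304, 257 and 258 near Cd74, 637, 568 and 360 near Mpeg1, and 374, 336 and 262 near Coro1a, in incisor, lower molar and upper molar. In lists of equal length none of the 114 regions had this pattern, against 1.71% of all. Regions in at least 1 tooth and in no ectoderm or Sox2-positive library were 24 of 165 against 22% of all, and 8 of 114 against 14.6% at equal length. These shares are near or below the background.

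Regions found in both ectoderm libraries and nowhere else were 22 of 165, against 11% of all, and 15 of 114 against 11.9% at equal length, shares near the background. Cx3cr1, the fractalkine receptor of microglia and monocytes, had 3 of them. Their signal in the 2 ectoderm libraries was 628 and 256 for the region 4.63 kb outside the gene's lower-coordinate end, and 532 and 283, then 982 and 518, for those inside it. Mpeg1, which encodes the pore-forming perforin-2 of macrophages, had 1 inside the gene (1474 and 890). Lyz2, the lysozyme gene of myeloid cells, had peaks within 25 kb in ectoderm only (3 and 1), and none in any of the 5 postnatal libraries. None of them lay inside Lyz2. The region called in both ectoderm libraries was inside the neighbouring gene Lyz1, and the others, of replicate 1 only, were between genes. With equal lists each ectoderm library had 1.

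Regions in all 5 postnatal libraries and in no ectoderm were 7 of 165, against 4.4% of all, and 3 of 114 against 5.99% at equal length, again near or below the background. They included sites inside Mrc1, Ptprc, Aif1 (which encodes IBA1) and Vav1, a guanine exchange factor of leukocyte receptors. At Mrc1 (chr2:14312419-14312984) the signal was 811 and 1272 in Sox2-positive cells, 1805 in incisor, 1035 in lower molar and 1286 in upper molar. At Ptprc (chr1:138136392-138136771) it was 464 and 418, 586, 340 and 463 in the same order. The sorted and whole-tooth values overlapped at both.

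Both molars and no other library shared 6 of the 165 regions, against 5.64% of all, and 1 of 114 against 4.33% at equal length, so the share lay below the background. Of the 6, 3 were inside Ptprc, with a signal of 365 and 568, 388 and 533, and 839 and 798 in lower and upper molar. Inside or within 25 kb of Ptprc there were 8 peaks in each molar, 6 in incisor, 4 and 3 in Sox2-positive cells and 3 and 1 in ectoderm. At equal length these became 2 and 5 in the molars, 3 in incisor, 2 and 3 in Sox2-positive cells and 1 and 1 in ectoderm. The postnatal libraries then overlapped, and both ectoderm libraries remained lowest. Ptprc was singled out after its values were seen. Itgam held 1 region, inside the gene, found only in incisor (signal 378) and upper molar (227). With equal lists it was kept in incisor only. The share of all regions with this pattern was not counted.

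**Figure D3:**
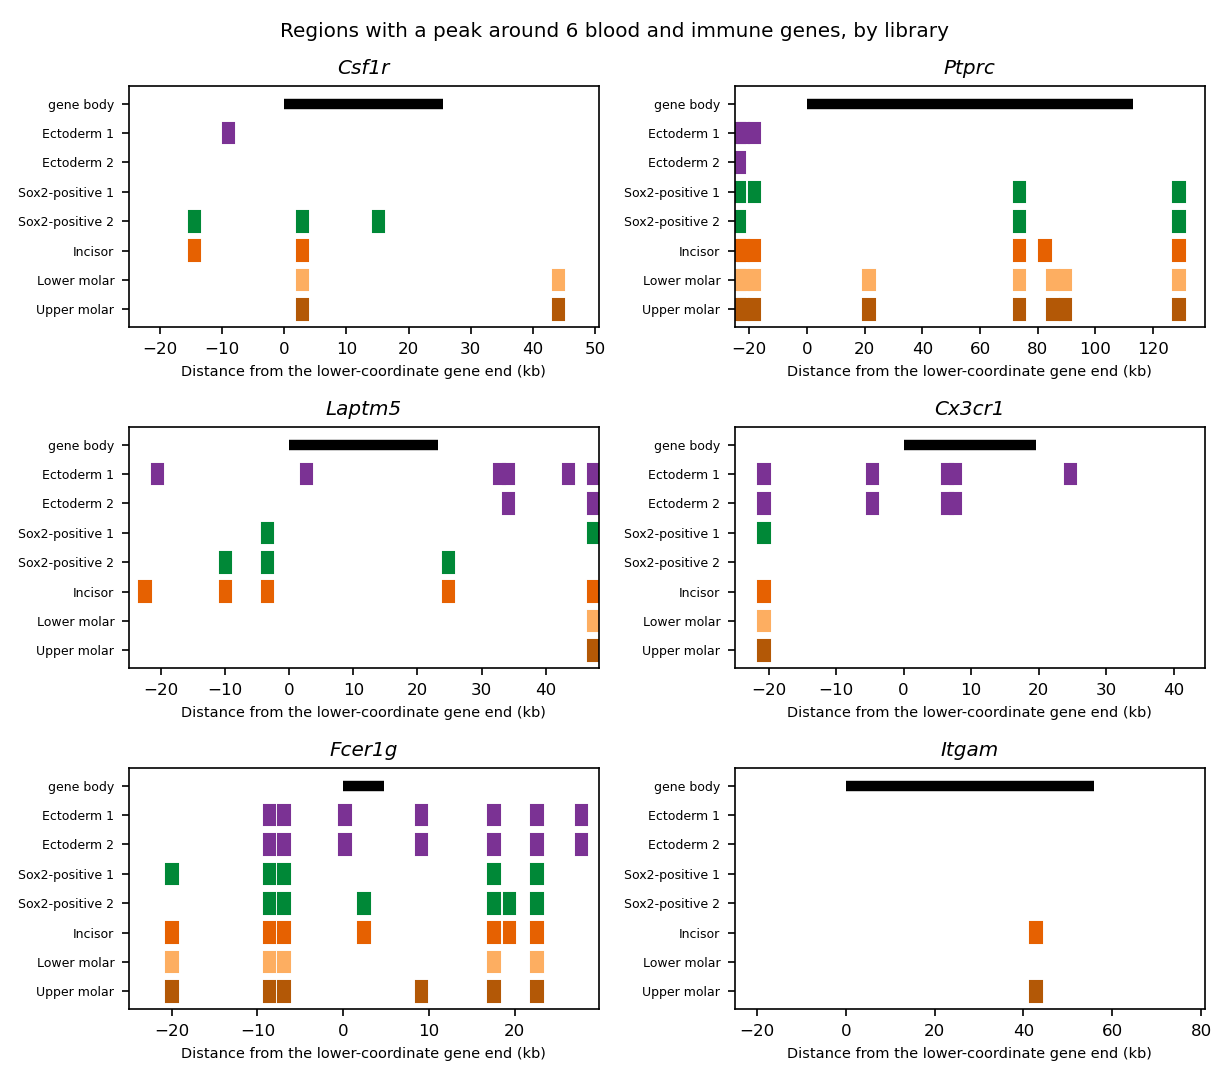
Regions with a peak (marks of fixed width centred on the region, wider than the peaks) by library (rows) along 6 genes and 25 kb to each side (x axis, kb from the lower-coordinate gene end), with the gene body as a black bar. The mark inside Csf1r at 2.97 kb appears in Sox2-positive replicate 2 and the 3 whole teeth, the marks inside Cx3cr1 in ectoderm only, and the mark inside Itgam in incisor and upper molar. The 6 genes were picked after their values were seen.

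The Sox2-positive replicates did not share all regions with the incisor alike, near these genes as near all genes. Of the regions found in the incisor, in no ectoderm and in exactly 1 Sox2-positive library, 13 were in replicate 2 and 5 in replicate 1, so 72.2% were in replicate 2, against 61.9% of the 6149 such regions near any gene. At equal length the counts were 12 and 1, or 92.3%, against 71.8% of 4375. Replicate 2 thus held more of them over all genes too, and with full lists the share near the 31 genes was close to that background. The 13 regions were near 10 genes, namely Fcer1g, Cd68, Cebpe, Csf1r, Mpeg1, Mrc1, Spi1, Tal1, Csf3r and Laptm5. This split was noticed in the data and has no replicate check, since each side is 1 library.

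Among those of replicate 2, a region inside Csf1r (chr18:61108138-61109148) had a signal of 1005 in Sox2-positive replicate 2, 788 in incisor, 551 in lower molar and 499 in upper molar, and no peak in Sox2-positive replicate 1 or in either ectoderm library. It ranked in the top 37%, 45.1%, 62.9% and 68.5% of those lists, and at equal length it was kept in Sox2-positive replicate 2 and incisor only. A known macrophage enhancer of Csf1r lies in its second intron, and whether this region is that enhancer was not tested. A region inside Fcer1g (chr1:171231535-171232316) was found in Sox2-positive replicate 2 (1237) and incisor (593) only. Near Laptm5, a lysosomal membrane protein gene of blood cells, 2 regions had the same pattern, with a signal of 429 and 731 in Sox2-positive replicate 2 and 475 and 550 in incisor. In Sox2-positive replicate 2 these 4 regions ranked in the top 33.6% to 52.9%. Regions of Sox2-positive replicate 2 and incisor alone were 8 of 165, or 4.85%, against 1.44% of all regions near genes. With equal lists they were 9 of 114, or 7.89%, against 3.51%. Endothelial genes then had 7 of 60, osteoclast genes 3 of 41, tooth mesenchyme 4 of 81 and other myeloid genes 3 of 109. Epithelial genes had 0 of 100, and the pattern was not particular to the 31 genes. Regions of replicate 1 and incisor alone were 2 of 165, or 1.21%, against 0.46% of all. At equal length these were 0 of 114, against 0.708%. The pattern of replicate 2 and incisor alone was singled out after its values were seen, and its cause was not tested.

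**Figure D4:**
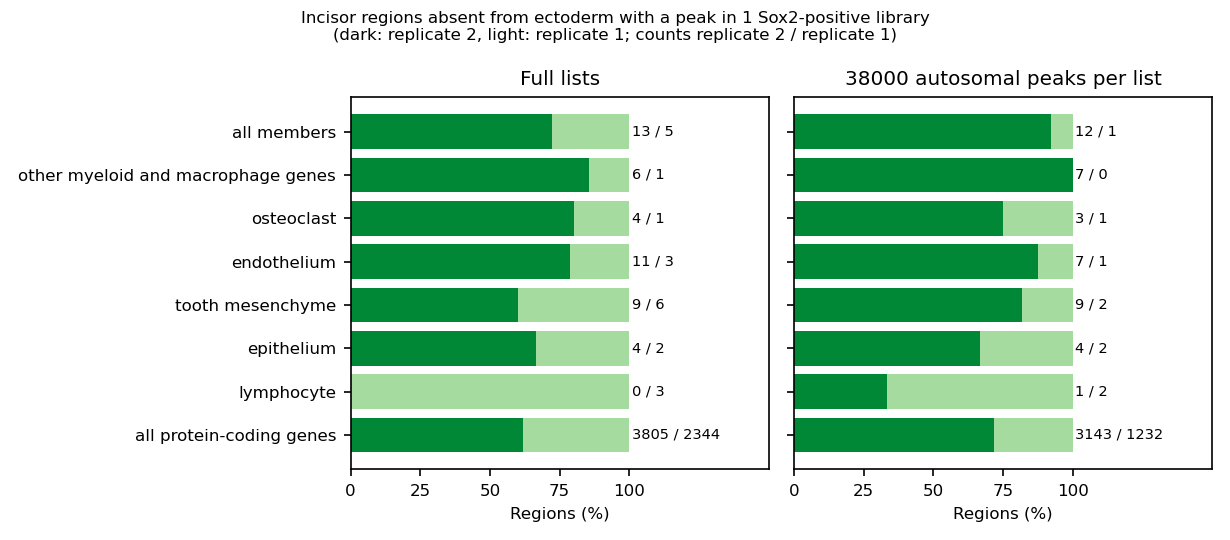
Regions found in the incisor, in no ectoderm and in exactly 1 Sox2-positive library (x axis, percent of such regions), divided into those of replicate 2 (dark) and replicate 1 (light), by gene list (y axis) with full lists (left) and lists of equal length (right). The blood and immune genes stand at 13 to 5 and 12 to 1, and all protein-coding genes at 3805 to 2344 and 3143 to 1232.

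Lists for other cell types were divided in the same way. The counts in replicate 2 and replicate 1 were 6 and 1 for other myeloid genes, 4 and 1 for osteoclast genes, 11 and 3 for endothelial genes, 9 and 6 for tooth mesenchyme, 4 and 2 for epithelium, 1 and 1 for Schwann and neural genes and 1 and 1 for housekeeping genes. Among the other blood lists they were 0 and 3 for lymphocyte genes, 0 and 2 for mast cell genes, 0 and 1 for further red cell genes and 1 and 0 for megakaryocyte genes, so the lists did not all lean to replicate 2. At equal length the myeloid, osteoclast, endothelial, mesenchyme and epithelial counts were 7 and 0, 3 and 1, 7 and 1, 9 and 2, and 4 and 2. Those of Schwann and neural, housekeeping, lymphocyte, mast cell, red cell and megakaryocyte genes were 0 and 0, 2 and 1, 1 and 2, 0 and 1, 0 and 1, and 0 and 0. The part of other cell types in the split was not tested.

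Further genes of blood cells were scored at their ends in the same way, beside the shares of all genes given above (53.3% to 63.1% by library). Of 20 myeloid and macrophage genes outside the list, 9 and 9 were called in ectoderm, 8 and 8 in sorted cells, 10 in incisor, 9 in lower molar and 11 in upper molar, or 40% to 55%, below the share of all genes in each library. Irf8, Cebpa and Cebpb, all transcription factors of myeloid cells, were among those called in all 7. Itgb2, the partner chain of Itgam, was called in incisor and upper molar only, with full and with equal lists. The share of all genes with this pattern was not counted. Of 8 osteoclast genes, the ectoderm had 3 and 3, sorted cells 1 and 2, the incisor 2 and each molar 4, or 12.5% to 50%, again below all genes. At equal length the ectoderm had 2 and 3, sorted cells 1 and 2, and each whole tooth 1, so the higher molar count was lost. Ctsk, the collagen-degrading protease of osteoclasts, was called in the 5 postnatal libraries only, as 0.507% of all genes were. Dcstamp, needed for osteoclast fusion, was called in both molars only, as 0.334% of all genes were, and nowhere at equal length. Acp5 went the other way and was called in both ectoderm libraries only, as 3.01% of all genes were. Tnfrsf11a and Mmp9 were called in ectoderm and in postnatal libraries, and Ocstamp, Oscar and Atp6v0d2 nowhere.

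Of 12 lymphocyte genes, 1 to 3 were called per library, and of 6 mast cell genes 1 or 2. None of 6 megakaryocyte genes was called in any library. Of 10 further red cell genes, 2 to 4 were called, so that all these lists lay below the share of all genes, and the globin genes Hbb-bs, Hbb-bt, Hbb-bh1 and Hba-a2 were not called in any. The globin genes have near-identical copies, and how reads that fit several copies were treated is not given in the sources used here, so their zeros, that of Hba-a1 included, are uncertain.

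The labels were checked in the same way. Of 10 epithelial genes, the ectoderm had a gene-end peak at 8 and 8, sorted cells at 9 and 9, the incisor at 6 and each molar at 9, all above the share of all genes. With equal lists the epithelial counts were 7 and 8, 9 and 9, 4, 7 and 6 in that order. The incisor, at 40%, then lay below the 52.6% of all genes. Of 10 tooth mesenchyme genes, 8 and 7 were called in ectoderm and 10 and 9 in Sox2-positive cells, as many as the 9 in each whole tooth. Gene-end peaks of mesenchyme genes were therefore as frequent in the sorted epithelial libraries as in whole teeth, and these counts did not separate the sorted cells from whole tissue. Of 10 endothelial genes, 4 and 4 were called in ectoderm, 2 and 3 in the Sox2-positive libraries, 5 in incisor, 6 in lower molar and 3 in upper molar, above the share of all genes in lower molar only. At equal length the endothelial counts were 3 and 3, 2 and 3, 1, 1 and 0 in that order. Depth and read quality per library are not in the peak lists, and their part in these counts was not tested.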

How the data were processed

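Open chromatin was measured by Omni-ATAC in 7 mouse libraries of 5 groups, taken from the sample titles. Per the submitters' processing notes, the tools were FastQC, Trimmomatic, Bowtie2, deepTools and Genrich, with the build mm10; versions, options, read filters and any shift for the transposase are not given in the sources used here. The deposited files are 1 peak list per library. Each peak has a signal value and a −log10 p, both as the authors deposited them, and the deposited summit offset. The lowest deposited signal was 200 in every list. The lists hold no read counts, so depth is unknown and no interval was computed.

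Gene bodies came from the RefSeq table for GRCm38.p6, whose coordinates are those of mm10, and strands and start windows from its table of starts, which lists 23 of the 31 genes. Cd52, Csf1r, C1qa, Adgre1, Spi1, Tyrobp, Cd74 and Cebpe were placed without strand. Summits within 1 kb of either end, and inside or within 25 kb of the body, were counted with pandas 2.3.3 and numpy 2.4.6 in Python 3.11.15, and the counting was tested on simulated lists. Peaks of all libraries sharing 1 base were merged into regions, and a library has a region if 1 of its peaks overlaps it. Rank is by −log10 p within a list. No p-value was computed: counts of the 31 genes and their regions stand beside the share of all genes or regions called alike. Alternatives changed the list length, the windows, the overlap and the replicates.

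The 31 genes and all other lists were chosen with earlier results of these data known. By rule, values are given for the 6 genes with a gene-end peak in some but not all libraries and for regions in whole teeth only, and the 5 strongest regions in both Sox2-positive libraries are named; the remaining values were picked after they were seen.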

Additional observations from a re-analysis of the deposited data

How the results depend on the processing

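Values below are in the order ectoderm, Sox2-positive cells, incisor, lower molar and upper molar where 5 are given, and ectoderm and Sox2-positive values are means of 2 libraries. The number of genes with a gene-end peak was 7.5, 4.5, 4, 4 and 4. It moved by more than 1.5 times in these cases: 2 in incisor and 2 in lower molar with equal lists by signal; 2 in Sox2-positive cells and in each tooth with peaks near another gene's end left out; 4, 1.5, 2 (incisor) and 2 (upper molar) with the 50% of each list of smallest p; 2.5 in Sox2-positive cells with a 500-base window; 14.5, 11.5, 13, 11 and 11 with a 2.5 kb window; and 2.5 in Sox2-positive cells at gene starts only, which cover 23 of the 31 genes. Changes of 1.5 times or less could still exceed the replicate SD of 0.707. Ectoderm had 5.5 with equal lists, 6 without peaks near another gene's end and 9.5 with any base of a peak counted. At gene starts, scored for 23 of the 31 genes, ectoderm had 5. Sox2-positive cells had 6 with any base. Whole teeth stayed below ectoderm under each of these settings. The share of all genes had the same order, 57% to 58.5% in teeth against 63.1% and 60% in ectoderm with full lists. With equal lists by p it was 52.6% to 53.1% against 56.6% and 58.3%. For the other settings the share of all genes was not counted. Genes called in whole teeth only remained 0 except for 1, Cd68, in the 50% of smallest p.

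The number of peaks within 25 kb was 104, 70, 97, 91 and 88. Equal lists by p gave 69 (ectoderm), 64, 52 and 58, and equal lists by signal 62.5 (ectoderm), 55, 53 and 55. Leaving out peaks near other gene ends gave 43 (Sox2-positive), 57 (lower molar) and 58 (upper molar). The 50% of smallest p gave 59, 36.5, 48, 53 and 50, a 10 kb flank 56.5, 39, 52, 47 and 48, and gene bodies alone 19.5, 11, 19, 16 and 18, counts that fall because less sequence or fewer peaks enter. Regions in whole teeth only were 3, and 0 with equal lists by p or by signal, with a 10 kb flank or in gene bodies alone, 1 in the 50% of smallest p and 5 with 200-base windows around summits.

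Leaving out 1 replicate at a time gave 7 to 8 genes in ectoderm and 4 to 5 in Sox2-positive cells, 89 to 119 and 69 to 71 peaks, 0 genes called in whole teeth only in each case, and 3 to 6 regions in whole teeth only. The count of such regions was 6 without either Sox2-positive library and 4 without ectoderm replicate 1. The share of regions in Sox2-positive replicate 2, 72.2%, was 92.3% with equal lists and 68.8% without regions at other gene ends; these settings were chosen after seeing the data. No paired analysis was possible because these counts come from no test and the labels do not tie ectoderm and sorted libraries of the same number. Depth sets how far down a list reaches, so a gene with no peak may be open below the calling limit.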
